A study of Homo sapiens with 4 samples.

Results

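The cytosolic ribosomal protein genes encode the protein part of the ribosomes that translate nuclear messenger RNA. They were taken by symbol from the GENCODE annotation of the human genome build GRCh37 (hg19): autosomal protein-coding genes named RPL or RPS with a number, optionally followed by A, X or L, together with RPSA, RPLP0, RPLP1 and RPLP2. Kinases of the RPS6K family and pseudogenes were left out. This gave 77 of 19229 autosomal protein-coding genes, of which 43 encode proteins of the large subunit, 31 of the small subunit and 3 of the stalk.

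Binding was measured by CUT&RUN, in which an antibody directs a nuclease to a chromatin protein and the released DNA is sequenced. The cells were SW-13, a line from an adrenocortical carcinoma with neither BRG1 nor BRM, the alternative ATPases that drive SWI/SNF nucleosome remodeling. Stable lines carried a doxycycline-inducible vector for V5-tagged wild-type BRG1 (iBRG1) or for a V5-tagged BRG1 from which the helicase/SANT-associated domain had been deleted (i∆HSA), the region through which BRG1 holds actin-related proteins. Each construct had 2 replicates of 300000 cells, all with 24 h of doxycycline, an anti-V5 antibody, 30 min of digestion on ice and 12 PCR cycles, making 4 samples. BRG1 was thus made from a transposon-inserted transgene in cells without their own, and each line was grown from a single clone, so that construct and clone cannot be told apart.

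The deposited data held 1 peak list per construct, 24212 peaks for iBRG1 and 25371 for i∆HSA, and no value per replicate. Replicate error is therefore unknown, no test between the constructs was possible, and the values below are descriptions. Shares carry 95% Wilson intervals, which cover counting error only. Each peak has a score given by the authors as a whole number on an unstated scale, with a median of 2 in the iBRG1 list and 4 in the i∆HSA list, so scores were ranked only within a list. Peaks scoring at least 5, the minimum that the methods name, made up 27.2% of the iBRG1 list and 41.1% of the i∆HSA list. Both lists hold more peaks than the paper reports. A depth was targeted per the methods but the depth reached is unknown, and a gene without a peak is a gene without a listed peak, not one shown to be unbound.

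Ribosomal protein genes are transcribed at high rates in growing cells, and their products are assembled on ribosomal RNA in the nucleolus before the finished subunits reach the cytoplasm. Their promoters are mostly rich in CpG, usually lack a TATA box and start transcription within a run of pyrimidines. That run opens the messenger RNA and is the terminal oligopyrimidine tract through which mTOR signalling controls its translation. SWI/SNF complexes slide or evict nucleosomes at promoters and enhancers.

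The start regions of 4 genes are shown first, because they are the ones at which both constructs had a promoter peak. They run from 100 bases before the main start to 20 bases from it onward, in the direction of transcription, and capitals mark the longest run of C and T reaching within 5 bases of the start. RPS19 lies on the plus strand at chr19:42364225-42364344, RPS16 on the minus strand at chr19:39926570-39926689, RPL28 on the plus strand at chr19:55897200-55897319 and RPL36 on the plus strand at chr19:5690206-5690325, all in GRCh37.
RPS19: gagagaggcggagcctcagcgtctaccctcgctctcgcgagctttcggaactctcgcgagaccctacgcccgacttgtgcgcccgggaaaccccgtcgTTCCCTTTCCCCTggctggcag
RPS16: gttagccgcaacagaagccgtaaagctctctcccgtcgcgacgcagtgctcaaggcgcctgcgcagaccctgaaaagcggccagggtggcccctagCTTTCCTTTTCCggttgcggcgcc
RPL28: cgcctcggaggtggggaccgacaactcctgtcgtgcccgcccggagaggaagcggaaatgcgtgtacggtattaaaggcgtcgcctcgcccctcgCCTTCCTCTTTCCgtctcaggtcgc
RPL36: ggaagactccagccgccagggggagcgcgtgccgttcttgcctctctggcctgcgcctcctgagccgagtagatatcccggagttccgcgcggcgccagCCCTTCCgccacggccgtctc

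Pyrimidine runs of 13, 12, 13 and 7 bases lay at the starts of RPS19, RPS16, RPL28 and RPL36. For comparison, 2 genes with no peak of either list within 10 kb of any of their starts carry the same kind of run. RPL10A (plus strand, chr6:35436078-35436197) had one of 10 bases and RPL14 (plus strand, chr3:40498730-40498849) one of 14 bases, so a run at the start was seen with and without a promoter peak.
RPL10A: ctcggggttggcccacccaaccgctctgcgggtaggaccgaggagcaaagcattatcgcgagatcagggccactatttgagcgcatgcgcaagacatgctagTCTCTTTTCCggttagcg
RPL14: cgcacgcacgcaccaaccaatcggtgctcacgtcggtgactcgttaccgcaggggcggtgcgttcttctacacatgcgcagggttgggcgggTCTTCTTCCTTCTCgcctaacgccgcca

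To ask how often either form of BRG1 was listed at these promoters, a promoter peak was defined as a peak reaching within 1 kb of any annotated transcript start of the gene. An iBRG1 promoter peak was found at 18 of the 77 ribosomal protein genes (23.4%, interval 15.3 to 34.0), and an i∆HSA promoter peak at 20 (26.0%, interval 17.5 to 36.7). The comparison was all 12503 autosomal protein-coding genes with a CpG-rich start, meaning a CpG observed/expected ratio of at least 0.6 and a GC content of at least 50% in the 500 bp on each side of the main start. Of these, 23.5% had an iBRG1 promoter peak and 26.2% an i∆HSA promoter peak. Under this rule, the shares of the ribosomal protein genes were close to the background. The ratios were 0.994 for iBRG1 and 0.993 for i∆HSA. Counted at the main start only, 15 genes (19.5%) had an iBRG1 peak, against 15.7% of CpG-rich genes. For i∆HSA there were 18 (23.4%) against 18.7%, giving ratios of 1.24 and 1.25.

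Over all annotated starts, the same comparison held at higher scores. Promoter peaks with a score of at least 5 were found at 8 ribosomal protein genes in the iBRG1 list (10.4%, background 8.83%) and at 11 in the i∆HSA list (14.3%, background 14.9%). Of the 77 genes, 71 were themselves CpG-rich and held every gene with an iBRG1 promoter peak and 19 of the 20 with an i∆HSA promoter peak. RPL4 was the 1 of the 6 other genes with a promoter peak. In all autosomal protein-coding genes, CpG-poor ones included, the shares were 18.4% and 21.0%.

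The 2 lists named mostly different ribosomal protein genes. Only 4 had a promoter peak in both lists (5.19%, interval 2.04 to 12.6, background 10.2%), 14 only in the iBRG1 list and 16 only in the i∆HSA list, and 43 (55.8%) had none in either. The 4 genes made up 22.2% of the family's iBRG1 genes and 20% of its i∆HSA genes. Over all CpG-rich genes the shared genes made up 43.5% and 39.1%. At a score of at least 5, RPS19 alone was listed for both constructs (1.30%, background 3.74%). The intervals of 5.19% and of the background overlapped, and with 1 list per construct the difference in sharing was not tested.

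**Figure D1:**
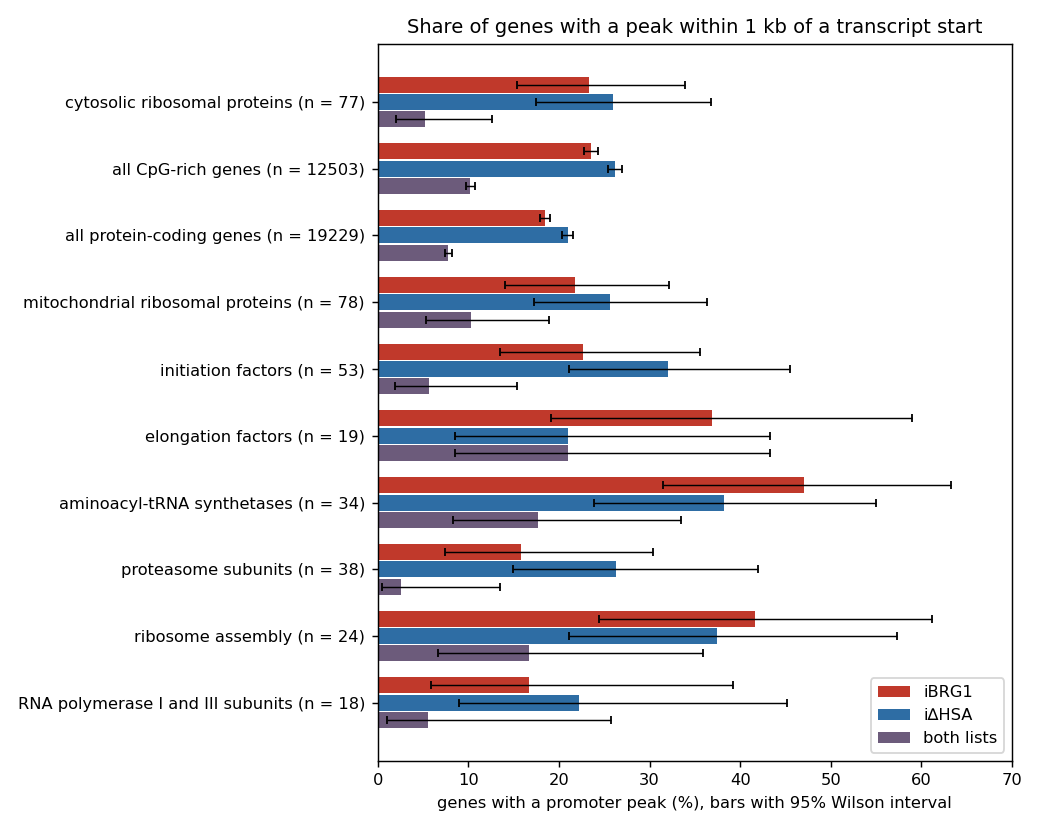
Share of genes with a promoter peak (horizontal axis, percent; red iBRG1, blue i∆HSA, purple both lists) for the cytosolic ribosomal protein genes, the 2 backgrounds and 7 lists of translation and proteasome genes, with 95% Wilson intervals as lines. The ribosomal protein bars at 23.4% and 26.0% sit beside the CpG-rich bars at 23.5% and 26.2%, while the bar for both lists is 5.19% beside 10.2%.

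The genes were also counted by subunit. Of the 43 large-subunit genes, 13 had an iBRG1 promoter peak (30.2%, interval 18.6 to 45.1) and 9 an i∆HSA promoter peak (20.9%, interval 11.4 to 35.2). Of the 31 small-subunit genes, 5 had an iBRG1 promoter peak (16.1%, interval 7.09 to 32.6) and 10 an i∆HSA promoter peak (32.3%, interval 18.6 to 49.9). The intervals of the subunits overlapped in each list, and each of these intervals contained the CpG-rich share of its list, 23.5% or 26.2%. Of the stalk genes, which encode the proteins that recruit the translation GTPases, RPLP0 had an i∆HSA promoter peak and RPLP1 and RPLP2 had none.

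RPS19, a small-subunit protein needed to mature the small-subunit RNA and the gene most often mutated in Diamond-Blackfan anaemia, had a score of 5 in the iBRG1 list and 12 in the i∆HSA list. Its iBRG1 peak (chr19:42362691-42364255) ended 70 bp before the main start and its i∆HSA peak (chr19:42362559-42364224) ended 101 bp before it. The peaks overlapped along nearly their whole length, and both lay upstream of the transcribed region.

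RPS16, a small-subunit protein whose tail reaches the decoding site, had a score of 6 in the iBRG1 list and 4 in the i∆HSA list. Its peaks (iBRG1 chr19:39926483-39927025, i∆HSA chr19:39926525-39927082) were the narrowest of the family in each list, at 543 and 558 bp, and each covered the main start. RPS16 shares its promoter with SUPT5H, a transcription elongation factor gene, so the peaks cannot be assigned to one of the 2 genes.

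RPL28, a large-subunit protein of eukaryotic ribosomes, had a score of 2 in the iBRG1 list and 4 in the i∆HSA list. The iBRG1 peak (chr19:55895705-55898871) covered the main start, whereas the i∆HSA peak (chr19:55896065-55897126) lay inside the iBRG1 interval and ended 174 bp before the start. Both also reached within 1 kb of a start of TMEM238.

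RPL36, another large-subunit protein, differed from the other 3 in that its peaks did not overlap. The iBRG1 peak, with a score of 11 (chr19:5680164-5681984), covered an alternative start and ended 8322 bp before the main start, close to starts of HSD11B1L and MICOS13. The i∆HSA peak, with a score of 2 (chr19:5688572-5690667), covered the main start. Among the 1280 CpG-rich genes listed for both constructs, the promoter peaks overlapped at 78.8%.

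In the iBRG1 list the highest promoter score of the family, 11, was shared by RPL36 and RPL7, and 9.49% of all iBRG1 peaks scored at least as high. RPL7, a large-subunit protein, had a peak of 1700 bp that covered its main start and shares its promoter with RDH10, a retinol dehydrogenase gene. RPL35, a protein near the exit of the nascent-chain tunnel, followed with a score of 7 (chr9:127623939-127625585), and its promoter is shared with ARPC5L. RPS16 and RPS29 each had a score of 6. RPS29, a zinc-binding protein of the small subunit, had its peak over the main start (chr14:50052684-50053739).

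RPL7, RPL35 and RPS29 had no i∆HSA promoter peak. The other 2 genes that reached 5 for iBRG1 and had no promoter peak for i∆HSA were RPL32 (score 5, chr3:12882113-12885230), a large-subunit protein, and RPS7 (score 5, chr2:3622484-3623275), a small-subunit protein. Both peaks covered the main start. The nearest i∆HSA peak lay 1823 bp from a start of RPS29, just beyond the promoter window, and 25802 bp or more from the starts of the other 4 genes.

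The i∆HSA list had its highest family score, 22, at RPL39L, and 7.00% of all i∆HSA peaks scored at least as high. RPL39L encodes a paralogue of RPL39, a small protein lining the nascent-chain tunnel, and is known for expression in male germ cells. Its peak covered the main start (chr3:186856750-186858968). RPL27, a large-subunit protein, had a score of 15 (chr17:41149411-41152057) and RPS27, a zinc-finger protein of the small subunit, a score of 13 (chr1:153962469-153964338). RPS19 followed with a score of 12. Of these 4 genes, RPS19 was the one with an iBRG1 promoter peak.

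In the small subunit, RPS27A scored 9 in the i∆HSA list with no iBRG1 promoter peak. RPS27A, which is made as a fusion with ubiquitin, had a peak ending 4 bp before its main start (chr2:55457905-55459820) in a promoter shared with CLHC1. RPL11, which forms a complex with RPL5 that binds MDM2, had a score of 7 over its start (chr1:24017097-24019509).

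At 3 other i∆HSA genes with a score of at least 5 and no iBRG1 promoter peak, the highest-scoring peak lay away from the main start. RPL4, whose extended loop lines the nascent-chain tunnel, had a score of 8 (chr15:66790060-66791359), 5834 bp into the gene at its end and near a start of SNAPC5. RPLP0, which anchors the stalk, had a score of 6 (chr12:120632899-120634321), past the end of the gene and near a start of GCN1. RPS18, a protein of the head of the small subunit, had a score of 6 in a peak across the end of the gene (chr6:33243591-33246205), over an alternative start of RPS18 and near a start of B3GALT4, and a second peak with a score of 4 (chr6:33238562-33242341) over its main start.

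The lower-scoring genes made up the rest. In the iBRG1 list RPL27A and RPS26 scored 4, RPL9, RPL23A, RPL26 and RPL37A scored 3, and RPL8, RPL22 and RPL24 scored 2, all without an i∆HSA promoter peak. In the i∆HSA list RPL21 and RPS14 scored 4, RPL13 and RPL18 scored 3, and RPS15 and RPS28 scored 2, all without an iBRG1 promoter peak. The median score over the family was 4 (range 2 to 11, n = 18 genes) in the iBRG1 list, where CpG-rich genes had a median of 3, and 6 (range 2 to 22, n = 20 genes) in the i∆HSA list, where CpG-rich genes had a median of 5.

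**Figure D2:**
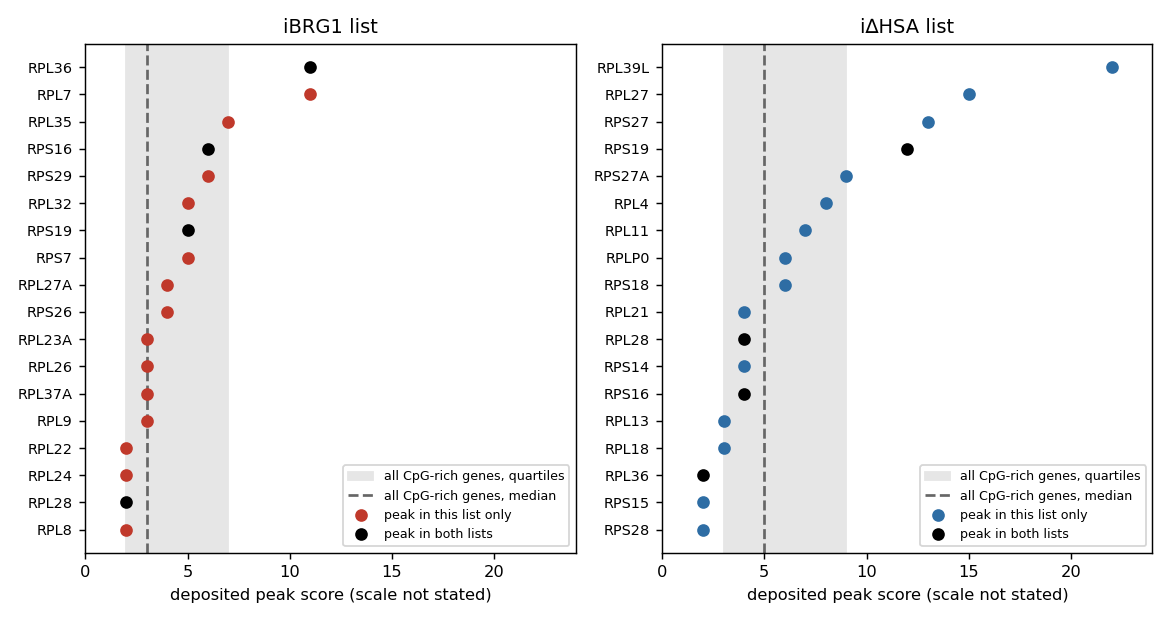
Deposited score of the highest-scoring promoter peak (horizontal axis, unstated scale) of ribosomal protein genes in the iBRG1 list (left, all 18 genes) and the i∆HSA list (right, 2 of the 20 genes not drawn), with black points for the 4 genes present in both. Most points lie between the quartiles of all CpG-rich genes (grey band), and RPL39L, at 22, stands highest in the i∆HSA list.

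Among the tissue-restricted or stress-linked paralogues, RPL39L was the one with a promoter peak. RPL3L, known from striated muscle, lay 24256 bp from its nearest iBRG1 peak and 27836 bp from its nearest i∆HSA peak. RPL10L, known from testis, lay 5092 and 136946 bp away, and RPS27L, a p53 target, 19317 and 77564 bp away, measured from the nearest annotated start.

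Promoter peaks of the family tended to lie at or before the start. The highest-scoring peak covered the main start at 12 of 18 genes in the iBRG1 list (66.7%, background 50.9%) and at 11 of 20 in the i∆HSA list (55%, background 52.5%). Its midpoint was upstream of the main start at 12 of the 18 genes and 13 of the 20 genes, against 40.7% and 47.8% of CpG-rich genes. Because many CpG-rich genes have distant alternative starts, the same was counted for peaks within 1 kb of the main start. The midpoint was then upstream at 11 of 15 genes (73.3%, interval 48.0 to 89.1) against 54.3% for iBRG1, and at 13 of 18 genes (72.2%, interval 49.1 to 87.5) against 61.0% for i∆HSA. In this count within 1 kb, the intervals of the family reached below the background shares. A difference in position was thus not detectable there with this number of genes. The midpoint counts over all starts carry no interval, and their difference from the background was not tested.

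The peaks were of ordinary width. The median was 1730 bp in the iBRG1 list (range 543 to 4238) and 1893 bp in the i∆HSA list (range 558 to 4559), against 1954 and 2131 bp for CpG-rich genes. A peak only at a start over 1 kb from the main start was found at 3 genes in the iBRG1 list (RPL22, RPL27A and RPL36) and at 2 in the i∆HSA list (RPL4 and RPLP0). RPL26 had its highest-scoring iBRG1 peak inside the gene and a second one, with a score of 2 (chr17:8287021-8288529), within 1 kb upstream of the main start.

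**Figure D3:**
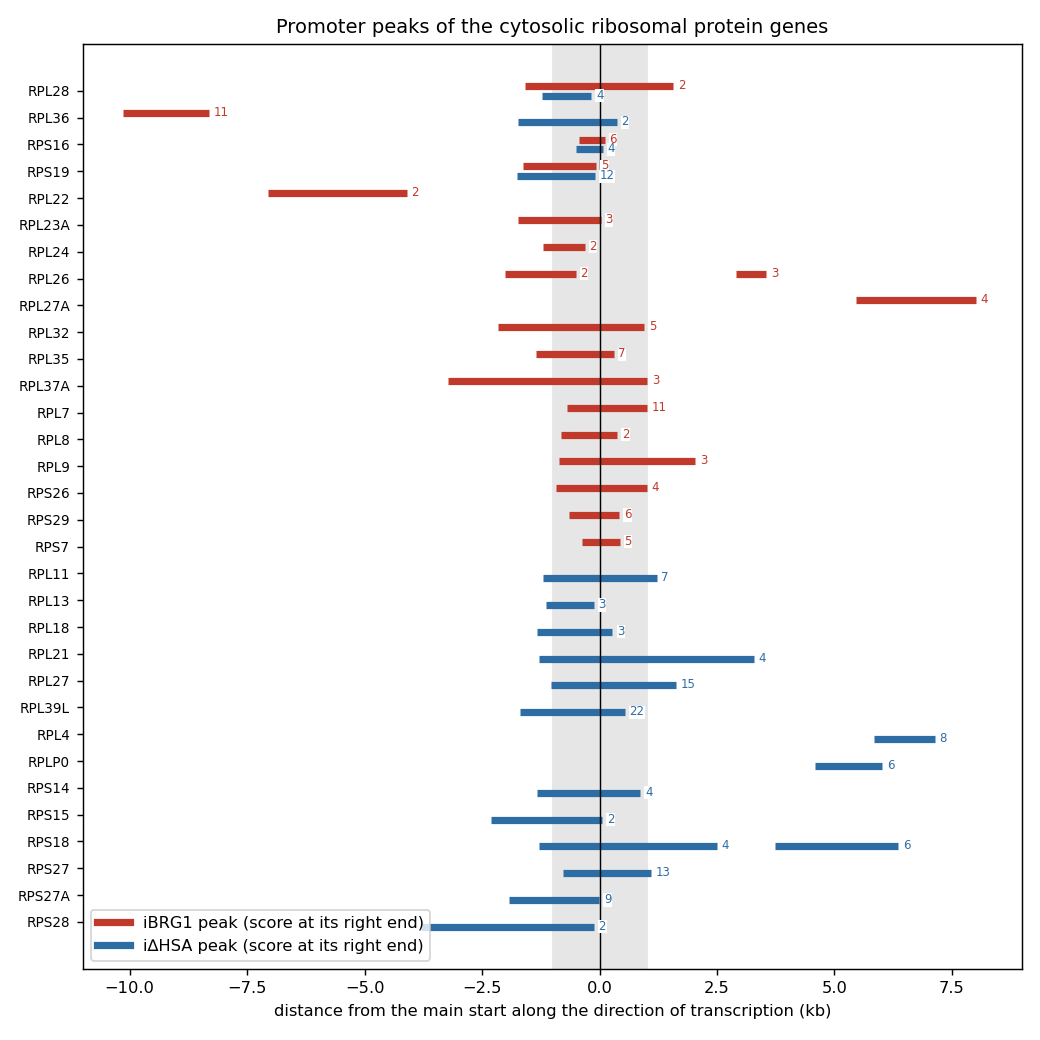
Position of the promoter peaks of the ribosomal protein genes with one (2 of the 34 genes not drawn), as distance in kb from the main start in the direction of transcription (horizontal axis; red iBRG1, blue i∆HSA), with the score at the right end of each bar and a grey band 1 kb either way from the start. Most bars touch the grey band, and the iBRG1 bar of RPL36 ends 8322 bp before the main start.

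Counted by bases, 12.6% of the 1 kb windows around the main starts of the family lay under an iBRG1 peak and 15.3% under an i∆HSA peak, against 9.71% and 12.5% for CpG-rich genes. The main start itself lay under a peak at 12 of 77 genes in each list (15.6%, interval 9.15 to 25.3), against 12.3% for iBRG1 and 14.2% for i∆HSA. Over windows around all annotated starts the family's coverage was 8.54% and 9.67%, against 4.2% and 4.88%. Gene length moved with this last comparison, since the family's genes had a median length of 5.55 kb and CpG-rich genes 36.4 kb. The number of annotated starts was similar, with a median of 8 in the family and 7 in CpG-rich genes. The part of gene length in the coverage was not tested.

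To ask whether the shared genes were spread over the genome, genes on chromosome 19 were counted apart, since 12 of the 77 lie there. On chromosome 19, 4 of the 12 genes had an iBRG1 promoter peak (33.3%, interval 13.8 to 60.9) and 8 an i∆HSA promoter peak (66.7%, interval 39.1 to 86.2). Among the 881 CpG-rich genes of that chromosome the shares were 29.9% and 40.7%, and 167 had both. The i∆HSA genes included RPL18, RPS15 and RPS28 beside the genes listed for both constructs, while RPL13A and RPS9 had no promoter peak in either list.

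All 4 genes listed for both constructs were on chromosome 19. On the other autosomes 14 of 65 genes had an iBRG1 promoter peak (21.5%, interval 13.3 to 33.0) and 12 an i∆HSA promoter peak (18.5%, interval 10.9 to 29.6), against 2677 (iBRG1) and 2912 (i∆HSA, 25.1%) of 11622 CpG-rich genes. None of the 65 had both (0%, with a Wilson upper limit of 5.58%; the limit set by 3 counts of the total is 4.62%), where 9.58% of CpG-rich genes on these chromosomes had both. Off chromosome 19 the 2 constructs named 26 ribosomal protein genes without 1 in common, which follows from the place of the 4 shared genes. Setting apart the chromosome that holds all 4 fixed this 0. Its limits therefore do not show that the family shares fewer genes than the background. The product of the 2 shares, as a number of genes, was 2.58 for these 65. For all 77 genes it was 4.68, where 4 were listed for both. Over all CpG-rich genes it was 769, where 1280 were listed for both. These differences were not tested.

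**Figure D4:**
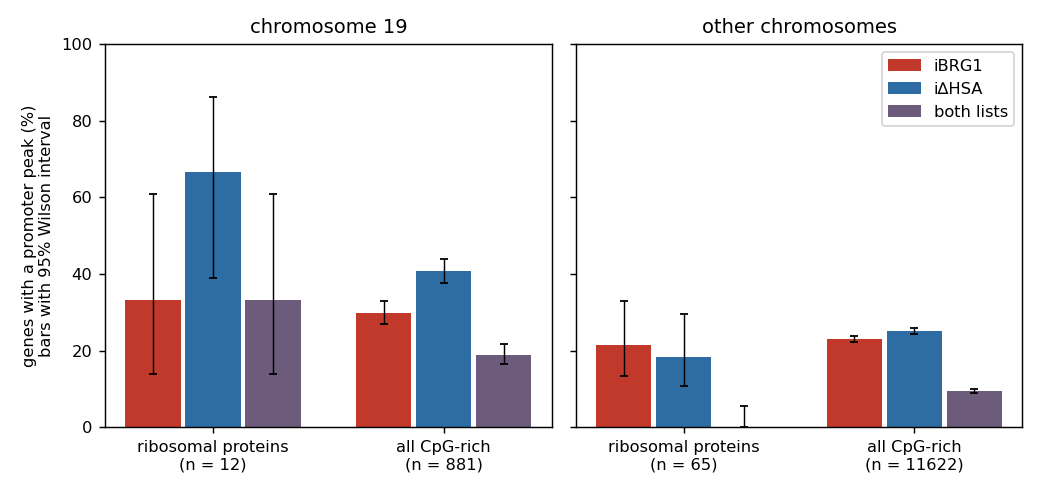
Share of genes with a promoter peak (vertical axis, percent; red iBRG1, blue i∆HSA, purple both lists) on chromosome 19 (left) and on the other autosomes (right), for ribosomal protein genes and all CpG-rich genes, with 95% Wilson intervals. The i∆HSA bar of the family is 66.7% on chromosome 19 and 18.5% elsewhere, and the bar for both lists is 33.3% and 0.

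The genes without a promoter peak were mostly far from any peak. No peak of either list lay within 10 kb of any start at 34 of the 77 genes (44.2%, interval 33.6 to 55.3), against 33.4% of CpG-rich genes. They included RPL5, the partner of RPL11, RPS6, the substrate of the ribosomal S6 kinases, RPS3 and RPSA, of the small subunit, and RPLP1 and RPLP2 of the stalk. A promoter peak in either list was found at another 34 genes (44.2%), against 39.4% of CpG-rich genes, and 9 genes lay between. Both counts take in every annotated start. The difference in gene length given above moves with them, and its part was not tested.

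Few genes sat just outside the promoter window. RPL12, at the base of the stalk, had its nearest i∆HSA peak 2594 bp from a start, and RPL17, a protein near the tunnel exit, had its nearest iBRG1 peak at 1821 bp. No main start of the family was between 1 and 3 kb from its nearest peak in either list, where 3.26% of CpG-rich genes were for iBRG1 and 3.09% for i∆HSA. The median distance from the main start to the nearest peak was 24256 bp for iBRG1 and 22107 bp for i∆HSA, against 24386 and 19848 bp.

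The family differed from other CpG-rich genes in the sequence at its starts. In the 300 bases from 250 before to 50 after the main start, a run of at least 8 C or T bases reaching within 5 bases of the start was found at 62 of 77 genes (80.5%, interval 70.3 to 87.8), against 10.5% of CpG-rich genes. It was found at 79.4% of the 34 genes with a promoter peak (interval 63.2 to 89.7) and at 81.4% of the 43 without, a difference within the interval. The median run was 11 bases in the family and 3 in CpG-rich genes. Allowing the run to reach within 30 bases of the start raised the shares to 89.6% and 22.8%.

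Other short strings were searched on both strands, except for the TATA box. The SP/KLF string GGGCGG was found at 59.7% of the family and 80.6% of CpG-rich genes, and the ETS string CCGGAAG at 33.8% and 19.3%. The YY1 string ATGGCGG was found at 18.2% and 10.8%, the NFY string CCAAT at 33.8% and 34.9%, the NRF1 string GCGCATGC at 7.79% and 5.94%, and the E-box CACGTG at 6.49% and 10.5%. The TATA box string TATAAA, on the coding strand 40 to 15 bases before the start, was found at 5.19% and 1.87%. The median GC content around the main start was 57.9% in the family and 65.3% in CpG-rich genes, and the CpG observed/expected ratio was 0.80 in both.

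Within the family, GGGCGG was found at 47.1% of genes with a promoter peak (interval 31.5 to 63.3) and 69.8% of those without (interval 54.9 to 81.4). CCGGAAG and CCAAT were each found at 23.5% of genes with a promoter peak (interval 12.4 to 40) and 41.9% of those without (interval 28.4 to 56.7). The intervals overlapped for each string. A match is a description of letters and not of a bound factor.

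**Figure D5:**
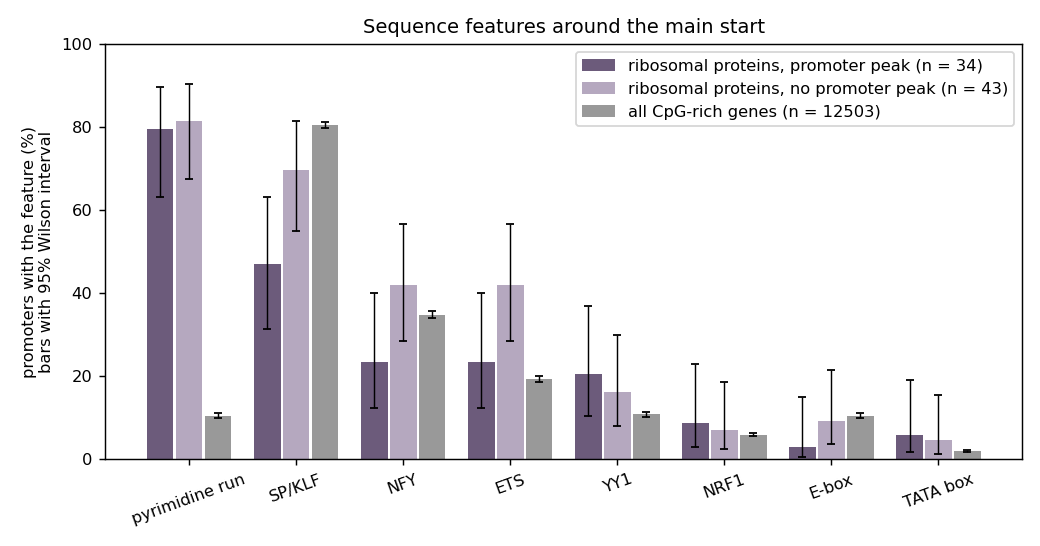
Share of promoters with each sequence feature (vertical axis, percent; bars with 95% Wilson intervals) for the 34 ribosomal protein genes with a promoter peak (dark), the 43 without (light) and all CpG-rich genes (grey). The pyrimidine run stands at 79.4% and 81.4% in the family and 10.5% in CpG-rich genes, while bars with and without a peak overlap in their intervals.

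Shared promoters and host genes of small nucleolar RNAs were counted within the family. Of the 19 genes whose main start lay within 1 kb of a start of another protein-coding gene, 6 had a promoter peak in each list (31.6%, interval 15.4 to 54.0), against 28.3% for iBRG1 and 27.6% for i∆HSA of CpG-rich genes with such a promoter. Of the 58 others, 12 had one for iBRG1 (20.7%, CpG-rich genes 22.0%) and 14 for i∆HSA (24.1%, CpG-rich genes 25.7%). Small nucleolar RNAs, which guide the modification of ribosomal RNA, are annotated on the same strand within the bounds of 27 of the genes. Among these 27 genes, 4 had an iBRG1 promoter peak (14.8%) and 5 an i∆HSA promoter peak (18.5%). Of the 50 genes without one, 14 (28%) and 15 (30%) did. Over all CpG-rich genes the shares were 23.5% and 26.2%. The intervals overlapped in each of these comparisons.

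The family was then set beside other genes of protein synthesis. Of 78 mitochondrial ribosomal protein genes, 17 had an iBRG1 promoter peak (21.8%), 20 an i∆HSA promoter peak (25.6%) and 8 both (10.3%), so that each share was close to the CpG-rich background. The initiation factor list, 53 genes with a symbol of EIF and a number, had 12 (22.6%), 17 (32.1%) and 3 (5.66%). The elongation factor list held 19 genes, those named EEF and a number with TUFM, TSFM, GFM1 and GFM2. It had 7 (36.8%), 4 (21.1%) and 4 (21.1%). Both symbol rules also take in genes of enzymes and regulators that act on the factors, so not every gene listed encodes a factor. The 34 aminoacyl-tRNA synthetase genes, which charge transfer RNAs, had the highest iBRG1 share of these lists, with 16 (47.1%, interval 31.5 to 63.3), and 13 for i∆HSA (38.2%). In both lists there were 6 of the synthetase genes (17.6%). The synthetase genes also had a median of 13 annotated starts, and the part of that number in the share was not tested.

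Genes of ribosome assembly, 24 in number, had 10 iBRG1 (41.7%) and 9 i∆HSA promoter peaks (37.5%), with 4 genes in both lists (16.7%). The 18 subunit genes of RNA polymerases I and III, which make ribosomal and transfer RNA, had 3 (16.7%) and 4 (22.2%), with 1 in both (5.56%). The 38 proteasome subunit genes, a set of housekeeping genes outside translation, had 6 (15.8%) and 10 (26.3%), with 1 gene in both lists. With counts of this size, the interval of the ribosomal protein genes overlapped that of each list named here in both constructs, the aminoacyl-tRNA synthetase genes included (iBRG1 31.5 to 63.3 against 15.3 to 34.0). Overlap does not show that shares are equal. For iBRG1, the intervals of the synthetase genes and of the ribosome assembly genes (24.5 to 61.2) lay above the CpG-rich share of 23.5%. For i∆HSA, the intervals of both lists contained the CpG-rich share of 26.2%.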

How the data were processed

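CUT&RUN peak lists of iBRG1 and i∆HSA were analysed. Per the study's methods and the submitters' processing notes (hg19), the authors trimmed reads with Cutadapt, aligned them with Bowtie2, removed duplicates with Picard, processed them with SAMtools, used MACS2 (2.2) for peak calling, and filtered the calls against negative controls and by a minimum score. The deposited score is a whole number per peak on an unstated scale. Scores under 5, the minimum that the methods name, remained in the lists. Whether replicates were pooled is not stated. Samples were grouped by title. The methods name a target depth, but the depth reached is unknown, which limits precision to the peaks listed.

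Starts came from GENCODE release 44 mapped to GRCh37, and 0 peaks ended beyond its chromosomes. The main start was the MANE Select start, available for all 77 genes. Positions are 1-based. Python 3.11.15, numpy 2.4.6, scipy 1.17.1, pysam 0.24.0 and matplotlib 3.10.9 were used. Peak assignment was tested on simulated data. No significance test was made, since each construct had 1 list. Members, gene lists and alternatives were chosen with earlier results of these data known. Genes were named by rule: those in both lists, the 5 highest-scoring per list, those with a score of at least 5 in 1 list only, paralogues ending in L, and those without a promoter peak but with one between 1 and 3 kb from a start. Some genes that the rule names are counted but not reported here by name. RPL5, RPS6, RPS3, RPSA and the lower-scoring genes were named after their values were seen. Windows, starts, score filters, chromosome 19, shared promoters and the comparison set were varied.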

Additional observations from a re-analysis of the deposited data

How the results depend on the processing

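Of 61 alternative values, 54 stayed within 1.5 times the main count or within the interval of the main value. Requiring a score of at least 5 left 8 iBRG1 genes, 11 i∆HSA genes and 1 gene in both lists. The 10000 highest-scoring peaks of each list left 11 i∆HSA genes and 1 in both. Leaving out chromosome 19 left 12 i∆HSA genes and 0 in both. The score filters take in fewer peaks. Leaving out chromosome 19 takes away 12 of the 77 genes, among them 8 with an i∆HSA promoter peak and all 4 in both lists. The ratio to the comparison share, 0.994 for iBRG1, ranged from 0.821 (window of 3 kb) to 1.27 (all protein-coding genes). For i∆HSA, 0.993, it ranged from 0.737 (without chromosome 19) to 1.25 (main start only). Against CpG-rich genes with 4 to 13 annotated starts, an alternative chosen after seeing the data, it was 1.01 and 0.98. The median score stayed between 4 and 4.5 for iBRG1 and between 4 and 6 for i∆HSA. No paired analysis was possible because the lists carry no replicate column, and no replicate could be left out.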

Other observations

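Ribosomal protein genes outside the autosomal set gave single values. Of the X-linked genes, RPL39 had an i∆HSA promoter peak with a score of 15 and none for iBRG1, RPL10 one for i∆HSA with a score of 4, and RPL36A one for iBRG1 with a score of 4. RPS4X had none. RPL39 and its autosomal paralogue RPL39L, which scored 22, thus both had a promoter peak in the i∆HSA list and not in the iBRG1 list. The paralogues RPL22L1, RPL26L1, RPL7L1 and RPL36AL had no promoter peak in either list.

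Processed pseudogenes of ribosomal proteins, copies of the messenger RNAs inserted elsewhere in the genome, were under a peak at 27 of 1436 loci for iBRG1 (1.88%, interval 1.30 to 2.72) and 16 for i∆HSA (1.11%, interval 0.69 to 1.80). All 9246 processed pseudogenes gave 1.44% and 1.40%. How reads that match several copies were placed is not given in the sources used here.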
